A study of Mus musculus with 2 samples.

Results

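The genes described here are 6 that encode peptide hormones of the gut: Gcg, Pyy, Cck, Nts, Sct and Ghrl. They were taken by symbol from the deposited table of RNA counts, and are 6 of its 22253 genes, of which 15807 had at least 1 count. All 6 had counts, whole numbers throughout. The unit of description was the single droplet barcode for co-expression and the culture for levels.

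The cells came from mouse distal small intestinal organoids, in which stem cells of the gut lining divide and give rise to its mature cell types. Controls and mutants alike carried 2 reporters, Gcg-Venus, which follows proglucagon, and Neurog3-RFP, which follows endocrine progenitors. There were 2 control cultures (hashtags A0308 and A0309) and 3 Etv1 mutant cultures (A0310, A0311 and A0312), which the labels call biological replicates, so p-values measure the spread between those cultures. The labels give neither the kind of Etv1 mutation, the sort gate nor the age of the cultures, and cells of all 5 were tagged, pooled and sequenced together.

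Enteroendocrine cells are scattered hormone-secreting cells of the gut epithelium. They arise from progenitors that express Neurog3, store prohormones in secretory granules and release them in response to nutrients. Single enteroendocrine cells commonly express more than 1 hormone gene, and which genes a cell expresses varies with its place along the gut and its maturity. Etv1 encodes a transcription factor of the ETS family.

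Of 3409 barcodes, all present in both the RNA and the hashtag library, 2725 held at least 500 genes and at most 25% mitochondrial counts. Hashtags placed 1432 of these in 1 culture (323 and 349 control, 282, 281 and 197 mutant), 1054 in none and 239 in several. Summed unique molecular identifiers (UMIs) per culture ranged from 4193197 to 7254380, with medians of 20842 to 24126 per cell. The median was 5509 in barcodes without a hashtag call. An enteroendocrine-like class of 94 barcodes (median 9386 UMIs) was found by clustering without the 6 genes. It had 14 of 16 markers past the bounds set for naming, with Chgb, Chga, Neurog3 and Etv1 among its leading genes. Etv1 itself was counted in every culture, at 6.20 and 6.28 CPM (counts of a gene scaled to the same UMI total in each culture) in controls and 3.21, 3.06 and 3.10 in mutants. Those groups did not overlap, and all mutants lay below all controls in 7.8% of the 11061 genes tested. The Etv1 difference missed the test (log2 change -1.0 ± 0.22 SE, adjusted p = 0.9997, edgeR). It was -2.27 ± 0.50 without the barcodes richest in hormones (at least 100 UMIs of 1 gene) and -0.52 ± 0.90 with equal cell numbers, neither passing. In the mutants 1 cell each held 17 of 20, 16 of 20 and 11 of 13 Etv1 UMIs, against 15 of 45 and 18 of 44 in controls. Since the mutation is not described, these counts do not check the labels.

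All 6 genes lie on the minus strand of mm10 (GENCODE vM21): Gcg at chr2:62474530-62483650, Pyy at chr11:102106676-102107832, Cck at chr9:121489824-121495694, Nts at chr10:102481756-102490486, Sct at chr7:141278330-141279133 and Ghrl at chr6:113716119-113719880. Ghrl overlaps 2 genes of the opposite strand, Gm26982 and Gm44033, which have no row in the table. The upstream sequences of Gcg, Sct, Cck and Pyy are shown because these 4 genes were counted together in single barcodes. Each is the 250 bases before the RefSeq start site on GRCm38.p6, 5′ to 3′ on the minus strand, at chr2:62483654-62483903, chr7:141279134-141279383, chr9:121495695-121495944 and chr11:102107833-102108082. Capitals mark matches, on either strand, to CCGGAA (a core of ETS factor sites), CAGATG and CAGCTG (E-boxes, the letters bound by factors such as Neurog3 and Neurod1) and TATAAA.
Gcg: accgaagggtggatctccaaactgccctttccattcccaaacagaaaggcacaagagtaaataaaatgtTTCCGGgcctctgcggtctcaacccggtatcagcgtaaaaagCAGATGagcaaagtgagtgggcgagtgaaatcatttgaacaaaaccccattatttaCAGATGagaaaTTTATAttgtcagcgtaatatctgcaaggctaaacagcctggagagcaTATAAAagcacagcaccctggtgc
Sct: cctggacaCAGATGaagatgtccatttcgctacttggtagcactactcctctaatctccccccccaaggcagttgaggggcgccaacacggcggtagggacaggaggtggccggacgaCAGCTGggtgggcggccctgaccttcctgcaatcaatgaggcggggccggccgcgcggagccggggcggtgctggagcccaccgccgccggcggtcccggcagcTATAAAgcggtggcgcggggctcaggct
Cck: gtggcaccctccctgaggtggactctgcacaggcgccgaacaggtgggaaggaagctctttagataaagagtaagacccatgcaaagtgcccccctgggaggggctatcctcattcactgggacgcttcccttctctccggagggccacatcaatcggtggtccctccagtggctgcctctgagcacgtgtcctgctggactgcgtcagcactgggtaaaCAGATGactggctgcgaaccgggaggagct
Pyy: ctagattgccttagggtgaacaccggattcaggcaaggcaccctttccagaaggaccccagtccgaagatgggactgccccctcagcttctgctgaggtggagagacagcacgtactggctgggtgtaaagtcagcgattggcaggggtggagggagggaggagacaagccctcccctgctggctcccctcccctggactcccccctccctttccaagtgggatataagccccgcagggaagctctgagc
All 6 genes matched the RefSeq table, and no matches overlapped one another. CCGGAA was found in 1 of 6, Gcg, starting 181 bases before the start site, against 12% of all 32851 upstream sequences of this length. CAGATG was found in 3 of 6 (2 matches in Gcg, 1 each in Cck and Sct) against 14.4% of all, and CAGCTG in 3 of 6 (Nts, Sct and Ghrl) against 13%. TATAAA was found in 2 of 6 (2 matches in Gcg, 1 in Sct) against 12.4%. TAATTA, a homeodomain core, was in none against 4.8%. The Pyy sequence held none of these letters. The 4 windows shown thus share no single motif of those searched, and a match is a description of letters, not of a bound site. G and C made up 44.8% of the Gcg window and 68.0% of the Sct window, against a median of 52.4%.

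The hormone transcripts were held by very few barcodes. Among the 2725 barcodes, Gcg, which encodes the precursor of the glucagon-like peptides, had 7716 UMIs, and 21.4% of them lay in 1 barcode. Cck, the precursor of cholecystokinin, which drives gallbladder contraction and pancreatic enzyme release, had 7574 UMIs with 50.5% in 1 barcode. Ghrl, the precursor of the appetite hormone ghrelin, had 3049 with 75.8% in 1 barcode. These shares mean that a sum over a culture can be set by a single cell. Pyy, which encodes peptide YY, a hormone that slows gut transit and lowers appetite, had 2687 UMIs with 67.8% in 2 barcodes. Nts, the precursor of neurotensin, had 2589 with 98.5% in 2 barcodes. Sct encodes secretin, which stimulates bicarbonate secretion, and was the exception: 41 barcodes of the enteroendocrine-like class and 71 outside it had at least 3 UMIs, of 5467 in all, and the highest barcode held 16.9%. At that same bound the other 5 genes were found in 13 (Gcg), 8 (Pyy), 18 (Cck), 6 (Nts) and 5 (Ghrl) barcodes. The enteroendocrine-like class held 94.4% to 98.8% of the UMIs of those 5 genes and 77.9% of Sct.

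Single UMIs were widespread at a low level. In stem-like cells (485 barcodes, median 20229 UMIs), which should lack these hormones, a UMI of Gcg was found in 5.57%, of Pyy in 5.77%, of Cck in 5.98% and of Sct in 8.66%. In enterocyte-like cells (385 barcodes, median 25418 UMIs) the shares were 4.68%, 5.97%, 7.53% and 17.7%. The like low shares of Gcg, Pyy and Cck in unrelated classes were read as background. In the enteroendocrine-like class a UMI was found in 12.8% (Gcg), 16.0% (Pyy), 26.6% (Cck) and 61.7% (Sct). After thinning to 1253 UMIs per barcode, the Sct share was 43.3% there, 0.412% in stem-like and 2.89% in enterocyte-like cells. A bound of at least 3 UMIs was therefore used. At that bound Pyy was found in 0 of 485 stem-like and 0 of 385 enterocyte-like barcodes, and Gcg in 1 and 0. Cck was found in 1 (10 UMIs) and 1 (61 UMIs), Nts in 1 and 1, Sct in 0 and 3, and Ghrl in 0 and 0.

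**Figure D1:**
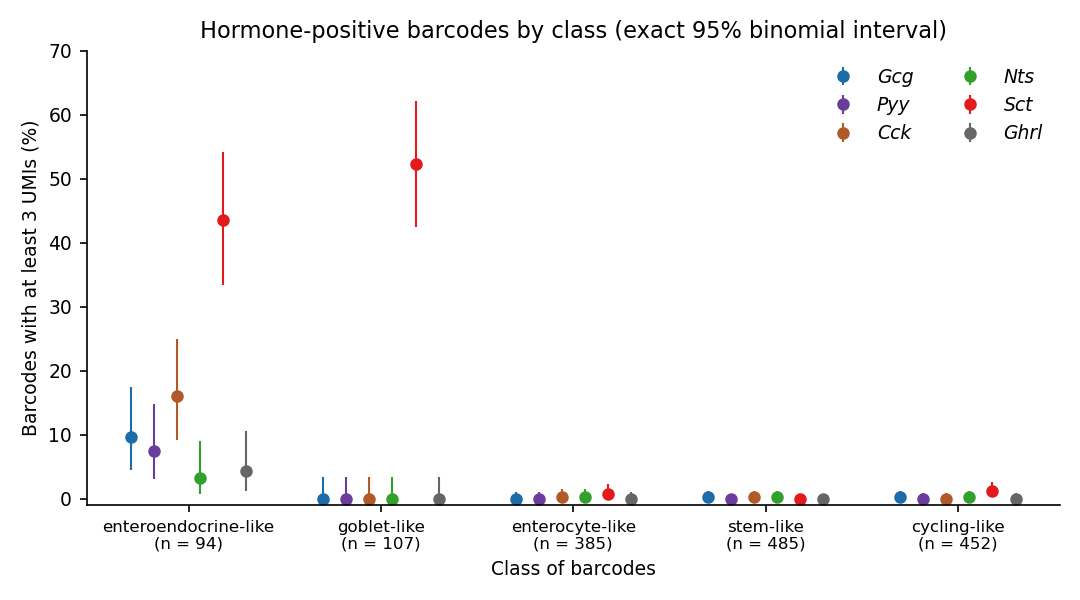
Share of barcodes with at least 3 UMIs of each hormone gene (vertical axis, percent) in 5 classes of barcodes (horizontal axis); points are shares over all filtered barcodes of the class and bars are exact 95% binomial intervals, which cover counting error only. Sct stands at 43.6% in enteroendocrine-like and 52.3% in goblet-like barcodes, and the other 5 genes are above 3% in the enteroendocrine-like class alone among the classes drawn.

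Hormone-rich barcodes expressed hormones in combination. A group of 13 barcodes, all enteroendocrine-like, held at least 100 UMIs of 1 of the genes, and in these the 6 genes together made up 1.35% to 27.6% of all UMIs. Of the 13, 12 held at least 10 UMIs of 2 or more of the genes and 8 of 3 or more. Sct was counted at 10 UMIs or more in 13 of 13, although it was the most abundant of the 6 in only 2. At least 2 of the 13 were chosen through Sct itself. Of 13 enteroendocrine-like barcodes with at least 10 UMIs of any of the other 5 genes, 12 had at least 3 of Sct. Outside the class, 1 enterocyte-like barcode held 61 UMIs of Cck. There, 0 barcodes had at least 10 UMIs of 2 or more of the 6 genes.

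Gcg-rich barcodes carried the longest combinations. A barcode of control culture 1 held 651 UMIs of Gcg, 927 of Pyy, 478 of Cck, 1746 of Nts and 103 of Sct among 17506 UMIs in all. A barcode without a hashtag call held the same 5 genes, at 1450, 110, 202, 804 and 767 UMIs in the same order. These 2 barcodes held 98.5% of all Nts UMIs. A barcode of control 2 held Gcg (1184), Pyy (895), Sct (862) and Cck (76) with no Nts, and a second without a call held Pyy (521), Sct (493) and Cck (46), with the Gcg count lying between those of Sct and Cck. In mutant 2 the richest barcode held Gcg (1655), Cck (1485) and Sct (198) beside 1 UMI of Pyy and 8 of Nts. Another barcode of control 2 held Gcg (943), Cck (3822) and Sct (126) with no Pyy. So Gcg with Cck and Sct was found in barcodes of both genotypes, and Gcg with at least 10 UMIs of Pyy in none with a mutant hashtag. The mutant cultures had only 0, 1 and 1 cells with at least 10 UMIs of Gcg, against 2 and 2 in controls.

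Ghrl-rich barcodes were of another kind. One barcode of control 2 held 2312 UMIs of Ghrl and 37 of Sct, and one without a call 482 of Ghrl and 37 of Sct, with no UMI of Gcg, Pyy, Cck or Nts in either. The third, of mutant 3, held 180 of Ghrl beside 519 of Gcg, 3 of Cck, 1 of Pyy and 10 of Sct. It was the only barcode with at least 3 UMIs of both Gcg and Ghrl. Mboat4, the enzyme that acylates ghrelin, had 1 UMI in each of these 3 barcodes. Of its other 18 UMIs 2 lay in barcodes of the class with at most 1 UMI of Ghrl and 16 outside the class. In mutant 1 the only hormone-rich barcode held Cck (903) and Sct (127) without Gcg.

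**Figure D2:**
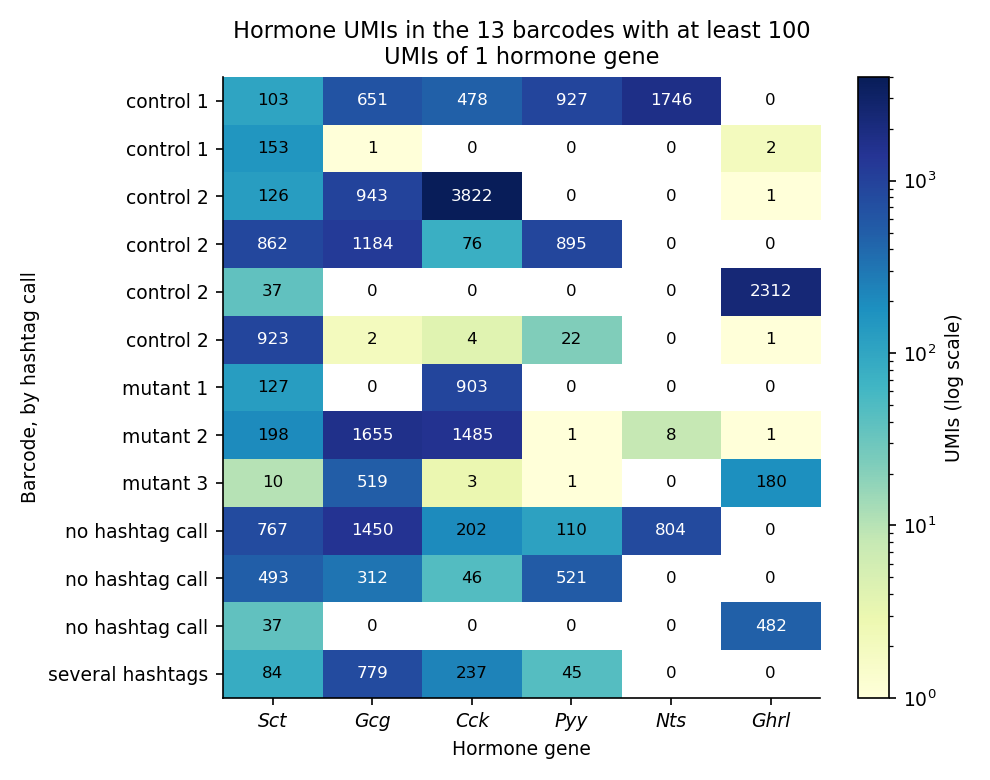
UMIs of each hormone gene (columns) in the 13 barcodes with at least 100 UMIs of 1 of them (rows, named by hashtag call); colour is on a log scale and white marks 0. The Sct column has at least 10 UMIs in every row, and Ghrl and Pyy are never both at 10 or more.

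The pair counts rest mostly on the same barcodes: of 14 enteroendocrine-like barcodes with at least 3 UMIs of 2 or more genes, 12 are among the 13 above, and the other two held Pyy (7) with Sct (8) and Gcg (9) with Sct (11). In the enteroendocrine-like class, 9 barcodes had at least 3 UMIs of Gcg, and of these 9 also had Sct, 8 Cck, 5 Pyy, 3 Nts and 1 Ghrl. All 7 barcodes with Pyy had Sct, 6 had Cck and 5 Gcg. The Pyy barcodes were thus mostly a subset of the Cck barcodes: 6 is 85.7% of the Pyy barcodes but 40% of the 15 with Cck. Cck was less tied to Sct, with 10 of 15 barcodes (66.7%) holding both, and these 10 were 24.4% of the 41 with Sct. No barcode had at least 3 UMIs of both Pyy and Ghrl or of both Nts and Ghrl. Of the 41 Sct barcodes, 29 had none of the others at 10 UMIs or more.

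Over all filtered barcodes, 112 had at least 3 UMIs of exactly 1 of the 6 genes, 7 of 2, 2 of 3, 5 of 4 and 2 of 5. Of the 16 barcodes with 2 or more, 14 were enteroendocrine-like. The other two were a stem-like barcode with several hashtags (Gcg 8, Nts 4) and a control 1 barcode of an unnamed low-depth cluster (Gcg 14, Sct 3). By call, 10 of the 16 had 1 hashtag, 3 none and 3 several, and by culture they numbered 2 and 5 in controls and 1, 1 and 1 in mutants. The 3 without a call compare with 1054 such barcodes among 2725, and the comparison of cultures does not use them.

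Combinations were found at ordinary depths too. Among the 13 hormone-rich barcodes, 2 held 55197 and 44223 UMIs, the only ones of the class above 40000, and the second carried several hashtags. The other 11 ranged from 8517 to 17764 UMIs, and 10 of them had at least 10 UMIs of 2 or more genes. Markers of other cell types were present at differing levels. The summed enterocyte markers reached 29551 CPM in the mutant 1 barcode and 22067 in the mutant 2 barcode, above the enterocyte-like median of 8635. So were those of the barcode without a call that held 5 of the genes (9849), which also had the highest goblet sum. The median of the 11 was 2628, and the part of other cells in the hormone counts of these 3 was not tested. The summed goblet markers of the 11 ranged from 169 to 9915 CPM, under the goblet-like median of 20583. Their summed Paneth markers had a median of 787 CPM, against 1639 in the rest of the class. They reached 8490 CPM in the control 2 barcode richest in Sct and 7283 in the Ghrl-rich barcode without a call. The part of Paneth cells in these 2 was not tested. No doublet caller was run, so 2 cells of 1 culture in a droplet cannot be told from 1.

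**Figure D3:**
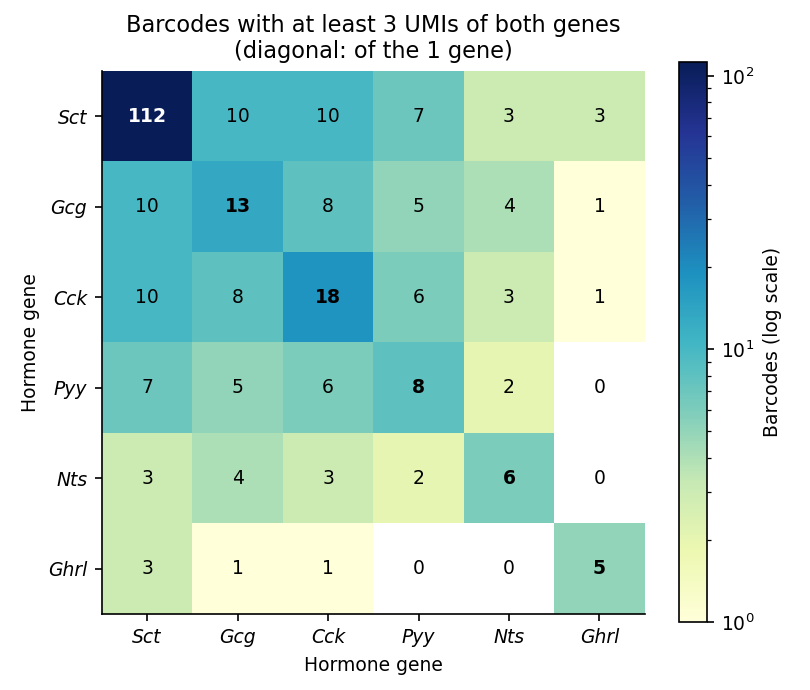
Number of filtered barcodes with at least 3 UMIs of both genes of a pair (off the diagonal) or of 1 gene (diagonal, bold), on a log colour scale with white for 0. The Gcg and Sct, and the Cck and Sct, pairs share 10 barcodes each, and Pyy and Ghrl share 0.

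Across the 94 enteroendocrine-like barcodes, Pearson's r of log levels (UMIs per 10000 plus 1, natural log) was 0.74 for Gcg and Cck, 0.73 for Gcg and Pyy and 0.58 for Pyy and Nts. It was 0.56 for Gcg and Sct, 0.13 for Gcg and Ghrl and -0.03 for Pyy and Ghrl. Spearman's rho was 0.62, 0.58, 0.43, 0.46, 0.39 and 0.13 for the same pairs. These describe barcodes that share 1 droplet run and differ in depth, and most values are 0, so a few rich barcodes set them. For Sct and Ghrl r was 0.20 and rho 0.26. By rank Ghrl was nearest to Gcg (0.39), and with Pyy, Cck and Nts rho was 0.13, 0.23 and 0.13. These values and that for Sct were below all pairs without Ghrl, of which the lowest was Nts and Sct (0.29).

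The genes most like each hormone gene were sought over all 2725 barcodes among 12339 genes with a UMI in at least 20. For Gcg they were Cck (r = 0.41), Nts (0.40), Vim (0.39), Pyy (0.39) and Scgn (0.34). For Pyy they were Vim (0.46), Gcg (0.39), Nts (0.34), Aplp1 (0.31) and Unc5a (0.31). Gcg was thus among the nearest genes of Pyy, as Pyy was of Gcg. The list for Cck was Gcg (0.41), Scg2 (0.36), Aplp1 (0.35), Rprml (0.34) and Cpe (0.34), and that for Nts was Gcg (0.40), Vim (0.35), Unc5a (0.35), Pyy (0.34) and Celf6 (0.33). Sct was most like Fam183b (0.48), Aplp1 (0.47), Cpe (0.46), Etv1 (0.45) and Scg2 (0.45), and Ghrl like Isl1 (0.40), Pcp4 (0.37), Cxxc4 (0.31), Maged2 (0.30) and Scgn (0.29). Etv1 was among the 5 for Sct alone.

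Vim encodes vimentin, an intermediate filament protein best known from mesenchymal cells. It had 136 UMIs in 33 barcodes, and 114 of those UMIs were in the enteroendocrine-like class. Of the 6 barcodes with at least 10 UMIs of Pyy, 5 held Vim, at 31, 18, 4, 36 and 8 UMIs. The mesenchymal markers Col3a1 and Dcn were at 0 in all barcodes, and Col1a1 and Pdgfra were at 0 in the class.

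Other genes were compared over the whole enteroendocrine-like class. Its 94 barcodes were put into 3 sets: 13 barcodes with at least 10 UMIs of Gcg, Pyy, Cck, Nts or Ghrl (median 14070 UMIs), 29 with at least 3 UMIs of Sct and none of the others at 10 (median 8512), and 52 with neither (median 9045). The first set is not the 13 barcodes with at least 100 UMIs, since Sct did not count towards it and its bound is lower. Because the hormone values define the sets, other genes are given as a description without a test, and depth differs as stated. The sets also pool control, mutant and uncalled barcodes, and their make-up by culture was not compared. Within the class Etv1 stood at 282 and 268 CPM in controls and 185, 201 and 126 in mutants. The part of genotype in the values of the sets was not tested. A UMI of Etv1 was found in 12 of 13, 16 of 29 and 10 of 52 barcodes, at 516, 164 and 51.2 CPM. Etv1 was thus counted most in the first set, less in the Sct set and least where neither was found. Neurog3, the early lineage factor, ran the other way, at 76.2, 641 and 711 CPM, as did Sox4, also a factor of early progenitors, at 233, 904 and 1801.

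Genes of secretion and nutrient sensing varied over the sets, not all in the same direction. Scgn, a calcium-binding protein of endocrine cells, was found in 12 of 13, 12 of 29 and 7 of 52 barcodes, and Pcsk1, the convertase that cleaves proglucagon to glucagon-like peptides, in 11, 17 and 18. Ffar1, a receptor for long-chain fatty acids, was found in 9, 3 and 1, and Gpr119, a receptor for lipid amides, in 8, 0 and 0. Insl5, a hormone of colonic cells, was counted in 2 of the 13 and in none of the other sets. Ffar2, a receptor for short-chain fatty acids, stood at 50.8, 92.9 and 104.6 CPM, Chga at 1959, 1907 and 2911, and Chgb at 3178, 9980 and 8012. These 3 were higher in the last set than in the first.

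**Figure D4:**
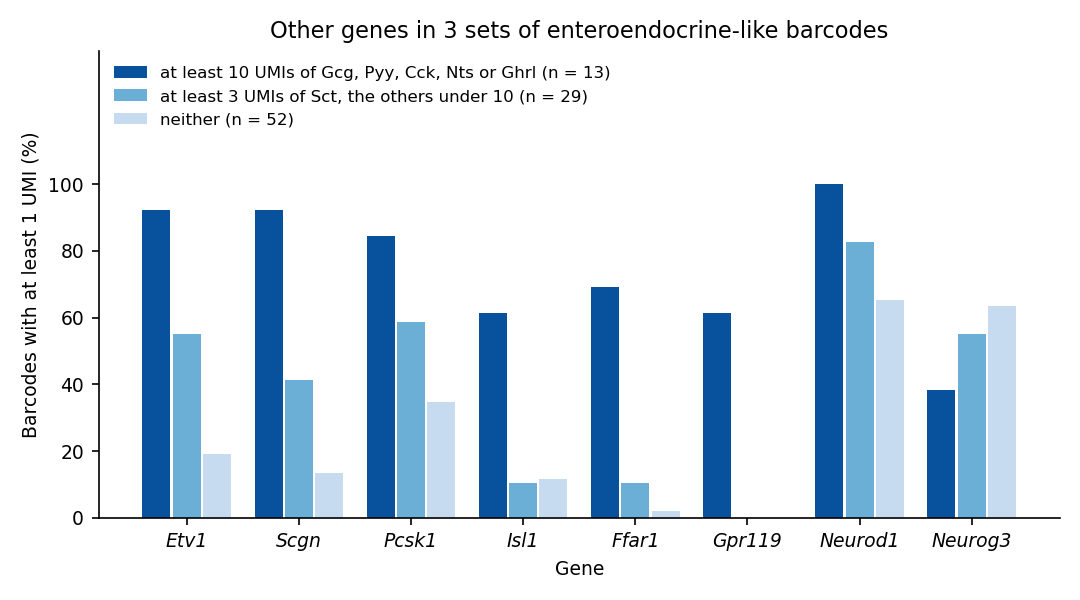
Share of barcodes with at least 1 UMI (vertical axis, percent) of 8 other genes in 3 sets of enteroendocrine-like barcodes formed by their hormone UMIs. The sets pool control, mutant and uncalled barcodes. Etv1 falls from 92.3% to 55.2% and 19.2% over the sets, and Neurog3 goes from 38.5% to 55.2% and 63.5%.

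Sct was also counted outside the endocrine lineage. In the goblet-like class (107 barcodes, median 18467 UMIs), 56 barcodes (52.3%, exact 95% interval 42.5% to 62.1%) held at least 3 UMIs of Sct. This compares with 41 of 94 (43.6%) enteroendocrine-like, 0 of 485 stem-like (exact upper limit 0.758% of barcodes with 3 UMIs), 3 of 385 enterocyte-like and 5 of 452 cycling-like barcodes. The goblet-like level was 311.9 CPM against 4144 in the enteroendocrine-like and 4.56 in the stem-like class. Per barcode it reached 99 UMIs with a median of 3, and 17 barcodes had 10 or more. Goblet-like barcodes thus numbered 56 of the 112 with Sct, with 12.4% of the Sct UMIs.

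The 56 goblet-like Sct barcodes held 1 UMI of Chga and none of Chgb, Neurod1 or Etv1. They held 10 UMIs of Neurog3, in 16.1% of the barcodes, against 11.8% of those with fewer than 3 UMIs of Sct. No goblet-like barcode had 3 UMIs of any of the other 5 hormone genes, and thinned to 1253 UMIs the Sct share was still 21.5%. The class carried goblet genes (Muc2, Spdef, Fcgbp, Spink4) together with Paneth genes such as the defensin Defa24 and Lyz1. The 56 barcodes alone held 42288 of the 65132 Defa24 UMIs, and no cluster was named for Paneth cells. Goblet and Paneth cells were thus not told apart in this class, and Sct in it cannot be assigned to goblet cells. Defa24 stood at 31706 CPM in the 56 barcodes with at least 3 UMIs of Sct and 11706 in the other 51, Defa17 at 21457 and 5182, and Muc2 at 409 and 130.4. Most other goblet and Paneth markers were higher in the 56 too, such as Spink4 at 13763 and 7333 CPM and Itln1 at 6820 and 2943. Smaller differences were seen for Fcgbp (1892 and 1658) and Tff3 (7079 and 5832). Spdef was not higher (118.5 and 126.9). The median depths were 19816 and 18178 UMIs.

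Whether the hormones differ with the Etv1 mutation was asked from counts summed per culture over all assigned cells. Such sums cannot tell fewer hormone cells from less RNA per cell, so shares of cells follow. Over all cells, 1 of the 6 genes, Pyy, passed the edgeR test at an adjusted p under 0.05 (lower in mutant), against 0.00904% of the 11061 genes tested, which was Pyy alone. At an unadjusted p under 0.05 there were 337 genes. In 2 of the 6, Pyy and Sct, all mutant cultures lay below all controls, against 7.8% of genes tested. All 6 had a negative log2 change, against a median of 0.00 over all genes.

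Pyy was counted at 939 and 944 UMIs in controls and at 11, 13 and 14 in mutants, that is 129 and 135 against 1.76, 1.99 and 3.34 CPM. The groups were far apart and the controls alike. The means were 132 ± 3.82 (SD, n = 2) and 2.36 ± 0.85 (SD, n = 3), and the log2 change was -5.86 ± 0.18 (SE, adjusted p = 6.02e-05, edgeR). In each control, however, 1 cell held nearly all of it: 927 of 939 and 895 of 944 UMIs. Without the richest cell of each culture the log2 change was only -1.10 ± 0.62 and no longer passed (adjusted p = 0.9999, edgeR). That left 12 and 49 control UMIs against 9, 11 and 13 in mutants. So the call rested on 2 barcodes, 1 in each control. The mutant levels were near those of background: stem-like barcodes stood at 2.87 CPM. The summed mesenchymal markers moved with Pyy, at 3.29 to 5.24 CPM in controls and 0.31 to 1.44 in mutants. Nearly all of this was Vim (38 and 23 UMIs against 9, 2 and 2), of which 31 and 18 control UMIs lay in the 2 Pyy-rich barcodes, and its part in the result was not tested.

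Sct stood at 78.7 and 315 CPM in controls (571 and 2208 UMIs) and at 42.3, 47.1 and 29.3 CPM in mutants. The groups did not overlap, but the controls differed widely, and 1 control 2 cell held 923 UMIs. The log2 change was -2.30 ± 0.50 (SE) and did not pass (adjusted p = 0.9997, edgeR). It passed with the hashtag calls of MULTIseqDemux (-2.43 ± 0.19, adjusted p = 0.0216, edgeR) and without control 1 (-2.97 ± 0.21, adjusted p = 0.0130, edgeR). It was smaller, and did not pass, without control 2 (-1.01), with equal cell numbers (-0.85) and without the barcodes with at least 100 UMIs (-0.91). Paneth markers, which the Sct-bearing goblet-like class carried, were also lower in mutants, with sums of 6817 and 2624 CPM in controls 1 and 2, the reverse of their order in Sct, against 2322, 2231 and 1030. Their part in the Sct difference was not tested.

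Gcg did not pass the test. Its counts were 682 and 2145 in controls and 11, 1677 and 528 in mutants, or 94.0 and 306 against 1.76, 256 and 126 CPM. Mutant 1 stood alone at the level of background, and mutants 2 and 3 lay within the control range. The log2 change was -0.63 ± 1.2 (SE, adjusted p = 0.9997, edgeR). Without the richest cell of each culture, which left 31 and 961 against 10, 22 and 9 UMIs, it was -4.85 ± 1.27 and did not pass (adjusted p = 0.9999, edgeR). Cck was counted at 551 and 3915 against 919, 1502 and 17 UMIs, or 76.0 and 559 against 147, 229.6 and 4.05 CPM. The groups overlapped, with mutant 3 low (log2 change -1.30 ± 1.17 SE, adjusted p = 0.9997, edgeR). Without the richest cell of each culture it was -2.07 ± 0.23 (adjusted p = 0.148, edgeR).

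Nts and Ghrl were each counted in quantity in 1 control only. Nts had 1751 UMIs in control 1, of which 1746 were in 1 cell, 0 in control 2 and 1, 10 and 9 in mutants. The mutants thus lay between the controls, and the fitted change of -6.67 ± 1.94 (SE, adjusted p = 0.9997, edgeR) was that of 1 cell. Without control 2 it passed, and without control 1 the change was 5.89. Ghrl had 6 and 2315 UMIs in controls and 4, 6 and 184 in mutants, of which 2312 and 180 were in single cells. The change was -3.61 ± 1.81 (SE, adjusted p = 0.9997, edgeR), and 3.98 without control 2.

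**Figure D5:**
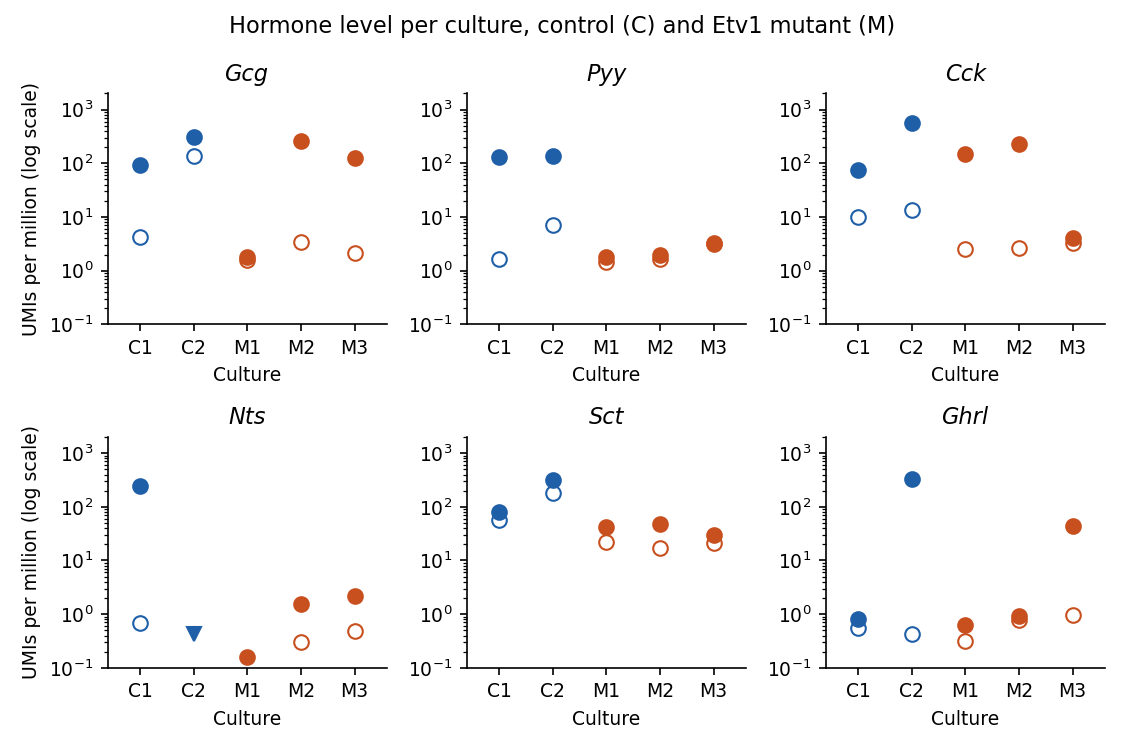
CPM of each hormone gene (log axis) in control cultures C1 and C2 (blue) and mutant cultures M1 to M3 (orange); filled points are all cells, open points the same culture without its richest cell, and the triangle marks the limit of 3 counts for a culture at 0. Pyy separates the groups with all cells and falls to between 9 and 49 UMIs per culture without the richest cells.

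The hashtag methods disagreed on some of the decisive barcodes. Of the 13 hormone-rich barcodes, which carried 42 to 151 hashtag counts each, 8 had the same call by HTODemux and MULTIseqDemux. The control 2 barcodes richest in Cck (3822 UMIs) and in Sct (923) were given several hashtags by MULTIseqDemux, and the one richest in Ghrl none. Of the barcodes without an HTODemux call, 2 with 110 and 521 UMIs of Pyy were placed in control 1. None of the changed calls moved a Pyy-rich barcode into a mutant culture, and Pyy passed with those calls too (-5.99 ± 0.17, adjusted p = 2.99e-05, edgeR). The Cck change was 0.97 with them, opposite in sign.

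Counting cells weighs each cell once. At least 3 UMIs of Pyy were found in 1 of 323 and 3 of 349 control cells and in 0 of 282, 0 of 281 and 0 of 197 mutant cells, with exact 95% upper limits of 1.30%, 1.30% and 1.86%. The exact intervals of the controls were 0.0078% to 1.71% and 0.178% to 2.49%. As elsewhere, they cover counting error only. Cck was found in 1.24% and 0.86% of control and 0.36%, 0.36% and 0.51% of mutant cells. For both genes every mutant lay below every control, with an exact permutation p of 0.1 (two-sided), the smallest that 10 splits of 5 cultures allow. The Cck shares are 4 and 3 control cells against 1, 1 and 1 mutant cells. How many of all genes separate so by share of cells was not counted, so no weight is put on it. All 6 hormone genes were compared by that permutation test. For Cck the groups overlapped with MULTIseqDemux calls (1.64% and 0.47% against 0.37%, 0.28% and 0.84%, exact permutation p = 0.4). Sct was found in 6.19% and 7.16% against 5.32%, 2.49% and 4.57% (exact permutation p = 0.2). Gcg was found in 0.62% and 0.57% against 0%, 0.71% and 0.51% (exact permutation p = 0.8). These are 2 and 2 control cells against 0, 2 and 1 mutant cells, too few to call the shares alike or different. Nts and Ghrl were found in at most 2 cells of a culture (exact permutation p = 1 for each).

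The share of enteroendocrine-like cells, in which these hormones lie, was 4.64% and 4.3% in controls and 2.84%, 3.56% and 3.55% in mutants (exact permutation p = 0.1, the smallest possible). The share of cells with at least 10 UMIs of any gene but Sct was 0.93% and 1.15% against 0.35%, 0.36% and 0.51%, which is 3, 4, 1, 1 and 1 cells. One of the 3 control 1 cells, with 14 UMIs of Gcg, lay outside the class. Both shares were lower in all mutant cultures. A permutation test of 2 against 3 cannot reach 0.05, and how often other shares separate so was not counted. Whether the shares differ with the mutation is therefore not settled. With MULTIseqDemux calls the difference in the enteroendocrine-like share was -0.445 percentage points, against -1.15, and the groups overlapped (exact permutation p = 0.8).

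Within the enteroendocrine-like class (15 and 15 control, 8, 10 and 7 mutant cells), 1 of 5 hormone genes tested, Pyy, passed (lower in mutant), against 0.0506% of 1978 genes, again Pyy alone. Pyy had 929 and 925 UMIs in controls and 0, 3 and 1 in mutants, or 6085 and 5639 against 0, 33.4 and 11.5 CPM. The log2 change of -8.55 ± 0.54 (SE, adjusted p = 7.24e-05, edgeR) depends on the prior count at such low mutant values. In 1 of the 6 genes, Pyy, all mutant cultures lay below the controls, against 11.5% of genes tested. Without the richest cell of each culture too few Pyy counts were left for the test, at 2 and 30 in controls and 0, 1 and 0 in mutants.

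The other hormone genes did not pass within the class. Gcg differed by -0.12 ± 1.43 (SE, adjusted p = 0.988, edgeR), at 4271 and 12979 CPM in controls and 0, 18441 and 5963 in mutants. Sct differed by -2.33 ± 0.79 (adjusted p = 0.80, edgeR), Cck by -0.70 ± 1.34 (adjusted p = 0.951) and Ghrl by -3.39 ± 1.96 (adjusted p = 0.855). Nts was not tested, being below the filter on low counts. Some passed when 1 cell per culture was left out: Cck without the cells richest in Cck or in Sct, Gcg without those richest in Ghrl, and Sct and Etv1 without those richest in Cck. Sct also passed without control 1, but was -0.49 without control 2 and -0.12 with equal cell numbers. Etv1 differed by -0.66 ± 0.30 (adjusted p = 0.855, edgeR), at 282 and 268 CPM against 185, 201 and 126.

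Sct in goblet-like cells was lower in mutants without passing. Its level was 604 and 272 CPM in controls and 284, 220.4 and 117 in mutants, overlapping between groups (log2 change -1.30 ± 0.44 SE, adjusted p = 0.999 over 3537 genes, edgeR). The share of goblet-like cells with at least 3 UMIs was 78.6% and 55.6% against 61.5%, 44.4% and 33.3% (exact permutation p = 0.3).

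Genes that make, package or receive these hormones were followed by lists. Of 16 genes of prohormone processing and granules, 13 were tested over all cells and 11 in the class, and 0 passed in either (edgeR). The medians of the log2 changes were -0.96 and -1.10 against 0.00 and 0.01 over all genes, and 11 of 13 and 9 of 11 were below 0. The most abundant were Chgb (8330 UMIs, log2 change -1.68 ± 0.63 over all cells) and Chga (2685, -0.84 ± 0.46), granins of secretory granules, and Ctsl (1887, -0.19 ± 0.23) and Cpd (1557, -0.07 ± 0.10), widely expressed proteases. Scgn (-1.97 ± 0.36), Scg3 (-2.32 ± 0.43) and Pcsk1n (-2.37 ± 0.61), picked after their values were seen, had the largest changes relative to error.

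Of 25 enteroendocrine transcription factors, 17 and 10 were tested and 0 passed, with medians of -0.15 and 0.07. The most counted were Sox4 (13862 UMIs), Tox3 (2173), Bmpr1a (1245, a receptor kept in the list) and Foxa1 (969), with log2 changes over all cells of -0.16, -0.15, -0.22 and -0.02. Neurog3, named for its role in the lineage, differed by 0.77 ± 0.49 over all cells and 1.26 ± 0.36 in the class (adjusted p = 0.720, edgeR). Of 19 other gut hormones and hormone-making enzymes, 4 and 2 were tested and 0 passed. The most counted were Nucb2 (223 UMIs), Tph1, the serotonin-making enzyme (196), Adm (181) and Tac1 (179), against 2589 for Nts, the least counted of the 6 genes described here. Somatostatin (Sst) had 3 UMIs and Gip 0. Of 17 nutrient and bile acid sensors, 3 and 2 were tested and 0 passed. The most counted were the glucose transporter Slc5a1 (5060 UMIs, 121 in the class), Ffar4 (988, 10 in the class), Ffar2 (216, 91 in the class) and Lpar5 (67, 2 in the class). Gpbar1, a bile acid receptor, had 56 UMIs and Ffar1 42, all within the enteroendocrine-like class, and both were picked after their values were seen.

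Most receptors of the hormones had few or no counts in these cells. Of 17 genes listed as receptors or cleaving enzymes, 9 had no UMI, among them Glp2r, Gcgr, Sctr, Ghsr, Ntsr1 and Cckbr. Glp1r and Cckar had 1 each. Npy1r, a receptor for peptide YY, had 46 UMIs, 2 of them in the enteroendocrine-like class. Dpp4, the protease that inactivates glucagon-like peptides, had 2389 UMIs and stood at 123.5 CPM in enterocyte-like, 93.4 in enteroendocrine-like and 17.9 in goblet-like barcodes. Sort1, a receptor for neurotensin, had 1308 UMIs, and Mme, which cleaves several gut peptides, 442. Ramp1, kept in the list though itself neither a receptor nor a cleaving enzyme of these hormones, had 129, with 99 in the goblet-like class. Of this list 4 and 1 were tested and 0 passed (edgeR).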

How the data were processed

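The authors deposited hashtag counts and a table of estimated UMI counts per gene and barcode from 1 pooled droplet run. Per the submitters' processing notes the tools were Cell Ranger 6.1.0, alevin, Salmon 1.4.0 and Seurat 4.3.0 with build mm10, and which of them made which table is not given there. Of the estimated counts above 0 in the deposited table, 95.6% were whole numbers, and sums were rounded before testing.

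Barcodes with at least 500 genes and at most 25% mitochondrial counts were kept. Hashtags were called with HTODemux (Seurat 5.3.0 in R 4.3.3, quantile 0.99), and barcodes with several or no hashtag were left out of comparisons of cultures. No doublet caller was run. Barcodes were clustered with scanpy 1.11.5 (2000 variable genes, 30 components, 15 neighbours, Leiden resolution 0.8), leaving out the 6 genes and a list of other hormones. Clusters were named from marker lists. Counts summed per culture were tested with edgeR 4.0.16 (quasi-likelihood, TMM, filterByExpr), all 5 cultures in the fit, with Benjamini-Hochberg adjustment over all genes tested and a threshold of 0.05. The test was checked on simulated counts. Shares were compared with exact permutation tests.

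Genes named were the 6 hormone genes, Etv1, the 5 genes most correlated with each hormone gene, and up to 4 members with most UMIs of each list, and others are given as background, as markers or as picked after seeing values. The hormone genes, gene lists and comparisons were chosen with earlier results of these data known. Alternatives included DESeq2 1.42.0, MULTIseqDemux, other bounds and leaving out cultures or the richest cells. Leaving out barcodes with at least 100 UMIs of a hormone gene or with 40000 UMIs in all, the share with any gene but Sct, and the goblet-like test were added after seeing the data. The values of 1 gene of the lists are not reported here.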

Additional observations from a re-analysis of the deposited data

How the results depend on the processing

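Over all cells, 1 gene passed. The number was 6 with DESeq2, 2 with MULTIseqDemux calls, 2 with no filter on low counts, and 0 with equal cell numbers, with a fixed hashtag rule, without the barcodes with at least 100 UMIs, or without the cells richest in Cck, Gcg, Nts or Pyy. It ranged from 1 to 6 when 1 culture was left out, being 6 without control 1, 5 without control 2 and 3 without mutant 2. Pyy passed under 10 of the 12 alternatives that tested it, and could not be tested with equal cell numbers or the fixed rule. In the enteroendocrine-like class 1 gene passed. The number was 2 with MULTIseqDemux calls, 0 with equal cell numbers, 6 without the cells richest in Cck, 4 without those richest in Sct, 2 without those richest in Ghrl, and 0 without those richest in Gcg, Nts or Pyy, and 1 to 4 when 1 culture was left out. The fixed rule gave no class comparison, because cultures were left without cells.

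Log2 changes over all cells turned positive with equal cell numbers for Gcg (3.34) and Cck (3.11), and with MULTIseqDemux calls for Cck (0.97). Leaving out 1 culture gave ranges of -1.68 to 0.42 for Gcg, -2.11 to 0.72 for Cck, -7.68 to 5.89 for Nts, -2.97 to -1.01 for Sct and -4.61 to 3.98 for Ghrl. In the class they turned positive for Gcg with equal cell numbers (0.017) and for Cck with MULTIseqDemux calls (1.46), with ranges of -1.55 to 0.95 for Gcg, -1.59 to 1.35 for Cck, -3.13 to -0.49 for Sct and -4.39 to 5.64 for Ghrl when 1 culture was left out. Differences in shares of cells, in percentage points, changed sign at 1 UMI for Cck (0.236) and Nts (0.363) and after thinning for Nts (0.566) and Ghrl (-0.162). Leaving out 1 culture gave -0.342 to 0.0136 for Gcg, -0.331 to 0.288 for Nts and -0.143 to 0.169 for Ghrl. Barcodes with 2 or more genes numbered 150 at 1 UMI and 38 at 1 UMI after thinning, against 16. The cause of these changes was not tested, beyond the cells or cultures that each alternative left out. No paired analysis was possible because the labels number no replicates that the groups share.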
